A study of Mus musculus with 23 samples.

Results

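Globin and erythroid genes were followed across control liver, pre-metastatic liver, and primary tumor. The 8 genes were chosen by symbol from the 48895 genes of the table, and all 8 were found. Of these, 6 belong to the mature red cell: Hba-a1 and Hba-a2 (alpha globin), Hbb-bs and Hbb-bt (beta globin), Alas2 (the erythroid first enzyme of heme synthesis), and Slc4a1 (band 3, the anion exchanger of the red cell membrane). The other 2 belong to red cell precursors: Klf1, a transcription factor that switches on beta globin, and Epor, the erythropoietin receptor.

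The animals were male BALB/c mice aged 4 to 6 weeks. Control liver came from 5 sham-operated mice, injected with medium alone. Pre-metastatic liver and primary tumor came from the same 9 mice, killed 3 weeks after CT26 cells, a BALB/c mouse colon carcinoma line, had been injected into the serosa of the cecum. All tumors therefore derive from a single transplanted line. Mice are named by their number, C1 to C7 for sham-operated and M1 to M12 for tumor-bearing animals. Each of the 23 libraries was made from poly(A) RNA of 1 tissue sample. Whether blood was flushed from these tissues is not given in the sources used here.

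Hemoglobin is built from alpha and beta globin chains, each carrying heme. A young red cell that has lost its nucleus, the reticulocyte, still holds globin, Alas2, and band 3 RNA. Earlier, nucleated precursors divide under erythropoietin and carry the transcription factors Gata1 and Klf1. The fetal mouse liver is a site of red cell formation, whereas in the adult mouse this takes place mainly in bone marrow and spleen.

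Total counts ranged from 44587556 to 79773163 per library (median 55927997). Levels are given as RPKM, the count scaled to gene length and to the total of the library. Hepatocyte genes (8 on the list, among them Alb) summed to at least 42695 RPKM in every liver and to at most 402 RPKM in every tumor. For tests, counts were compared with edgeR with Benjamini-Hochberg adjustment over all genes tested, and a gene was called at an adjusted *p* under 0.05. In whole tissue, more cells of a type and more RNA per cell cannot be told apart.

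By the table's mm10 positions, Hba-a1 lies at chr11:32283672-32284486 and Hba-a2 at chr11:32296492-32297310 on the plus strand, and Hbb-bs at chr7:103826523-103827928 and Hbb-bt at chr7:103812524-103813923 on the minus strand. Alas2 lies at chrX:150547417-150570622 (plus), Slc4a1 at chr11:102348820-102365281 (minus), Klf1 at chr8:84901928-84905295 (plus), and Epor at chr9:21958897-21963576 (minus).

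The 250 bases before the RefSeq start of transcription (build GRCm38.p6) were searched on both strands for motifs of erythroid and core promoters. They were found for 7 of the 8 genes, all but Slc4a1. Shown are an alpha globin, a beta globin, Alas2, and Klf1, as 1 example of each kind of gene whose levels are described next. Capitals mark a match on either strand. Searched were AGATAA and TGATAA, which GATA factors bind, and CCNCACCC, which KLF factors bind. Its narrower form CCACACCC was counted on its own. Searched for the core promoter were CCAAT and 3 forms of the TATA box, which are spelled out with their counts. The sequences are those of the reference genome, not of BALB/c mice. For Klf1, the window stops at the gene start of the deposited table, which lies before the RefSeq start, so 196 bases are shown.
Hba-a1, chr11:32283422-32283671, strand +: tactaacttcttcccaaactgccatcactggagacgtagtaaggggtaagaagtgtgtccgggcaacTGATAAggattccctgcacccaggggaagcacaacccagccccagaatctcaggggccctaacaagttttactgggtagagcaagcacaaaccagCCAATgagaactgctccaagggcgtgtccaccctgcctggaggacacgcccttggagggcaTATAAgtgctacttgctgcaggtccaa
Hbb-bs, chr7:103827929-103828178, strand -: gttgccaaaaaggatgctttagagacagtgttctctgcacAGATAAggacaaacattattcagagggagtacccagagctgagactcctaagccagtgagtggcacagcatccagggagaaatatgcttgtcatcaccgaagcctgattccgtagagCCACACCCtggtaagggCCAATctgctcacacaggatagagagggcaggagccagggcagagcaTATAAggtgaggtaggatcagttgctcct
Alas2, chrX:150547167-150547416, strand +: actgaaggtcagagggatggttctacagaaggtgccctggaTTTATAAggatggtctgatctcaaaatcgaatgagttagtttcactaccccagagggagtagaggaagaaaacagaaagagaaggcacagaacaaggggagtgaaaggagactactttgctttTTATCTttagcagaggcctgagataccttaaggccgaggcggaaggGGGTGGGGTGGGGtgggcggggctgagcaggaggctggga
Klf1, chr8:84901732-84901927, strand +: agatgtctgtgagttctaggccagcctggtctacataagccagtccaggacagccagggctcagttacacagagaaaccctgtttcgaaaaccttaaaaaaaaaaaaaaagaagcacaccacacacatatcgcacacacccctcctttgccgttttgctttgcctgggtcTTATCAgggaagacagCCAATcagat
A GATA motif was present in 6 of the 7 windows, with AGATAA in 3 (Hbb-bs, Alas2, and Epor) and TGATAA in 3 (Hba-a1, Hba-a2, and Klf1). Over all 32851 promoters of the RefSeq table, 9.99% held AGATAA and 7.94% held TGATAA. CCNCACCC was found in 4 windows (Hbb-bs, Hbb-bt, Alas2, and Epor) and in 14.9% of all promoters, and the narrower CCACACCC in Hbb-bs alone and in 3.20% of all. CCAAT was found in 5 windows (the 4 globins and Klf1) and in 33.9% of all promoters. TATAAA was in 2 windows (Hbb-bt and Alas2) and in 12.4% of all, and CATAAA was in 0 of the 7 and in 10.8% of all. TATAA, added after the sequences had been seen, was in 5 windows and in 22.8% of all promoters. It overlaps TATAAA. Both the mature genes and the 2 precursor genes thus hold GATA motifs, and a motif is a match of letters and not a measured binding site.

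The promoters of Hba-a1 and Hba-a2 were 97.6% identical over an alignment of 253 columns, and those of Hbb-bs and Hbb-bt 70.5% over 258. The transcripts are alike as well. Of the 100-base windows of the Hba-a2 transcript, 74.5% also occur in Hba-a1, and of those of Hbb-bs, 62.6% also occur in Hbb-bt. A read from such a window cannot be assigned to 1 gene, so the split within each pair is uncertain. How such reads were counted is not given in the sources used here, so the alpha and beta sums may be affected too. The table carries the beta globin names of the reference strain, while BALB/c mice carry another form of this locus.

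The 6 mature red cell genes were higher in pre-metastatic than in control liver, and the 2 precursor genes, Klf1 and Epor, did not differ detectably. In this comparison 6 of the 8 genes were called higher by edgeR and 0 lower (0 also at an unadjusted *p* under 0.05 and by DESeq2), against 17.7% of the 16987 genes tested called higher and 13.3% called lower. All 8 had enough counts to be tested. The plot of RPKM by library shows every value.

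**Figure D1:**
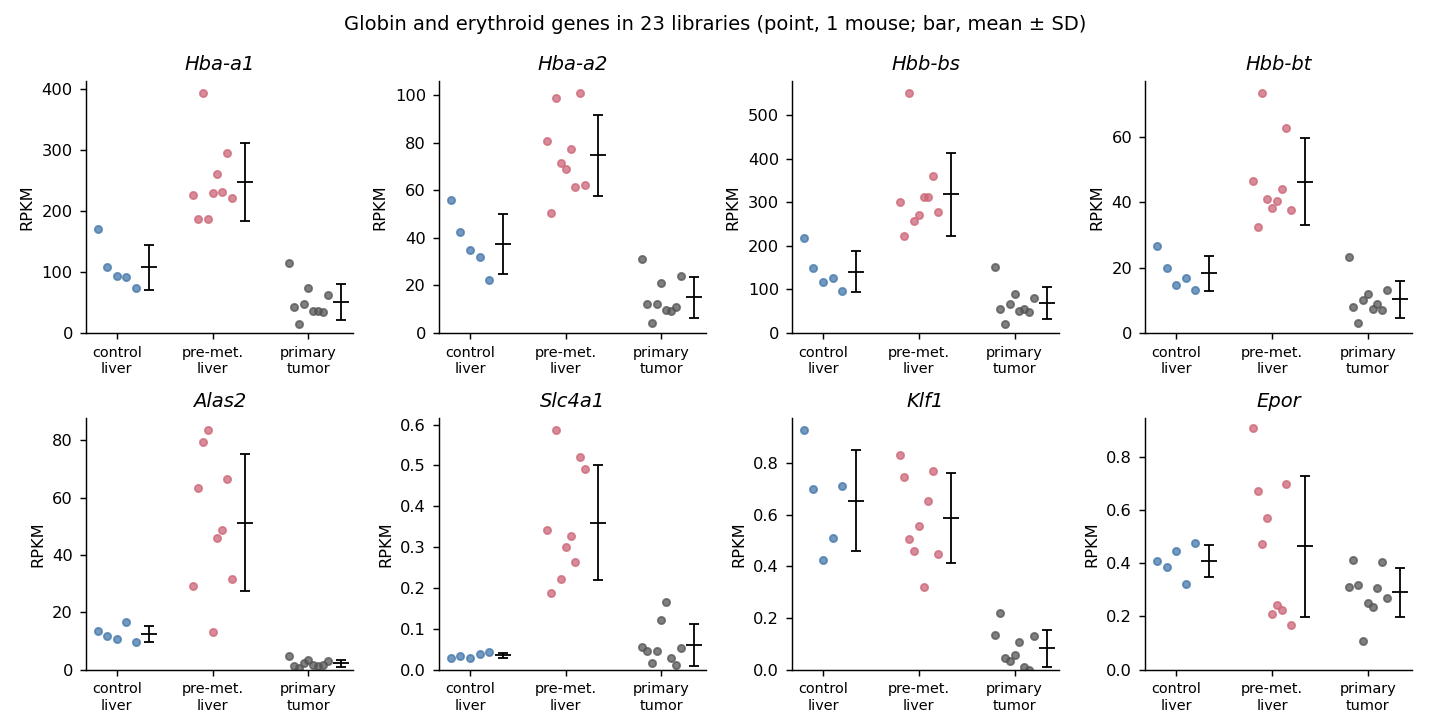
RPKM of the 8 genes (vertical axes, each from 0) in 5 control livers, 9 pre-metastatic livers, and 9 primary tumors. Each point is a library and each bar the group's mean ± SD. Slc4a1 points of the pre-metastatic livers (0.187 to 0.588 RPKM) all lie above those of the control livers (0.0291 to 0.0440 RPKM), while Klf1 points of the livers overlap.

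Hba-a1 had 170, 109, 93.3, 91.9, and 73.1 RPKM in the control livers of mice C1, C4, C5, C6, and C7. In the pre-metastatic livers it ranged from 186 RPKM (M5) to 394 RPKM (M4), with a median of 229 RPKM. Every pre-metastatic liver was above every control liver. The fitted difference was 1.27 on the log2 scale (SE 0.24, adjusted *p* = 0.00104 by edgeR), that is 2.42-fold. Its near-copy Hba-a2 ranged from 22.2 to 56.0 RPKM in control livers and from 50.4 to 101 RPKM in pre-metastatic livers, and rose by 1.06 (SE 0.22, adjusted *p* = 0.00244 by edgeR). Here the groups overlapped, since the liver of M2 lay below that of C1.

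Hbb-bs, the more abundant beta globin in the table, had 217, 149, 118, 126, and 96.5 RPKM in the control livers in the same order, and 223 (M2) to 552 (M4) RPKM in the pre-metastatic livers, with a median of 302 RPKM. Its difference was 1.24 (SE 0.24, adjusted *p* = 0.00136 by edgeR), with no overlap between the groups. Hbb-bt ranged from 13.3 to 26.6 RPKM in control livers and from 32.3 to 73.5 RPKM in pre-metastatic livers, again without overlap, and rose by 1.41 (SE 0.22, adjusted *p* = 0.000355 by edgeR). The 4 globins together came to 305 ± 101 RPKM (SD, n = 5) in the controls, against 687 ± 185 RPKM (SD, n = 9) in the pre-metastatic livers, a ratio of 2.26 without overlap. They took 0.0183% ± 0.00607 of the counts in control liver and 0.0413% ± 0.0112 in pre-metastatic liver.

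The balance of the chains was near level in both livers. Alpha over beta globin was 0.907 ± 0.0423 in control and 0.894 ± 0.0609 in pre-metastatic liver. Hba-a2 made up 25.9% ± 1.92 of alpha globin RPKM in control liver and 23.3% ± 2.64 in pre-metastatic liver, and Hbb-bt made up 11.5% ± 0.528 and 12.7% ± 1.08 of beta globin RPKM. The ranges overlapped between the livers for all 3 quantities.

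Alas2 rose by 2.08 on the log2 scale (SE 0.33, adjusted *p* = 0.000349 by edgeR), or 4.23-fold. Whether this differs from the rise of the globins was not tested. It had 13.5, 11.6, 10.7, 16.6, and 9.79 RPKM in the control livers and 13.2 (M6) to 83.7 (M5) RPKM in the pre-metastatic livers, with a median of 48.8 RPKM. A single pre-metastatic liver, M6, fell within the control range, and the next lowest, M1, had 29.0 RPKM. Alas2 lies within Apex2, a DNA repair gene on the opposite strand, and the counting is not stated to use strand. Apex2 had 1.49 RPKM on average in control, 1.16 in pre-metastatic liver, and 2.63 in the tumor.

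Of the 8 genes Slc4a1 had the largest difference, 3.45 on the log2 scale (SE 0.36, adjusted *p* = 2.74e-05 by edgeR), or 10.9-fold. Its RNA was scarce: the control livers had 8 to 11 counts each (0.0291, 0.0347, 0.0293, 0.0387, and 0.0440 RPKM). The pre-metastatic livers had 38 to 148 counts, or 0.187 (M2) to 0.588 (M4) RPKM with a median of 0.328 RPKM, and no value overlapped. Altogether 4 of the 8 genes (Hba-a1, Hbb-bs, Hbb-bt, and Slc4a1) were higher without overlap, against 4.85% of all genes tested.

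Klf1 had 0.928, 0.698, 0.424, 0.511, and 0.712 RPKM in the control livers (39 to 86 counts) and 0.319 (M7) to 0.829 (M1) RPKM in the pre-metastatic livers (39 to 69 counts), with a median of 0.556 RPKM. The ranges overlapped nearly whole. The difference was -0.09 on the log2 scale (95% interval -0.65 to 0.47, adjusted *p* = 0.818 by edgeR), and it turned to 0.11 without mouse C1. The upper bound of this interval lies below the lower bound of each of the 6 mature genes, the nearest of which was 0.59 for Hba-a2.

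Epor had 0.409, 0.385, 0.447, 0.321, and 0.476 RPKM in the control livers. In the pre-metastatic livers it spread more widely, from 0.168 (M12) to 0.906 (M1) RPKM with a median of 0.472 RPKM, so that livers of the tumor-bearing mice lay both below and above all controls. The difference was 0.23 (95% interval -0.53 to 0.99, adjusted *p* = 0.661 by edgeR). Unlike that of Klf1, the upper bound of this interval lies above the lower bounds of the 4 globins, from 0.59 (Hba-a2) to 0.94 (Hbb-bt). A rise of Epor as large as that of the globins is thus not excluded. In the mice with a clock index under 0 the difference was -0.16 (adjusted *p* = 0.744 by edgeR). That index, the level of the day clock genes Dbp, Per3, and Ciart less that of Arntl, Npas2, and Clock, was taken to set apart livers of unlike clock phase, and a value under 0 kept 4 control and 5 pre-metastatic livers. The 6 calls on mature genes held in these mice and without any single liver.

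**Figure D2:**
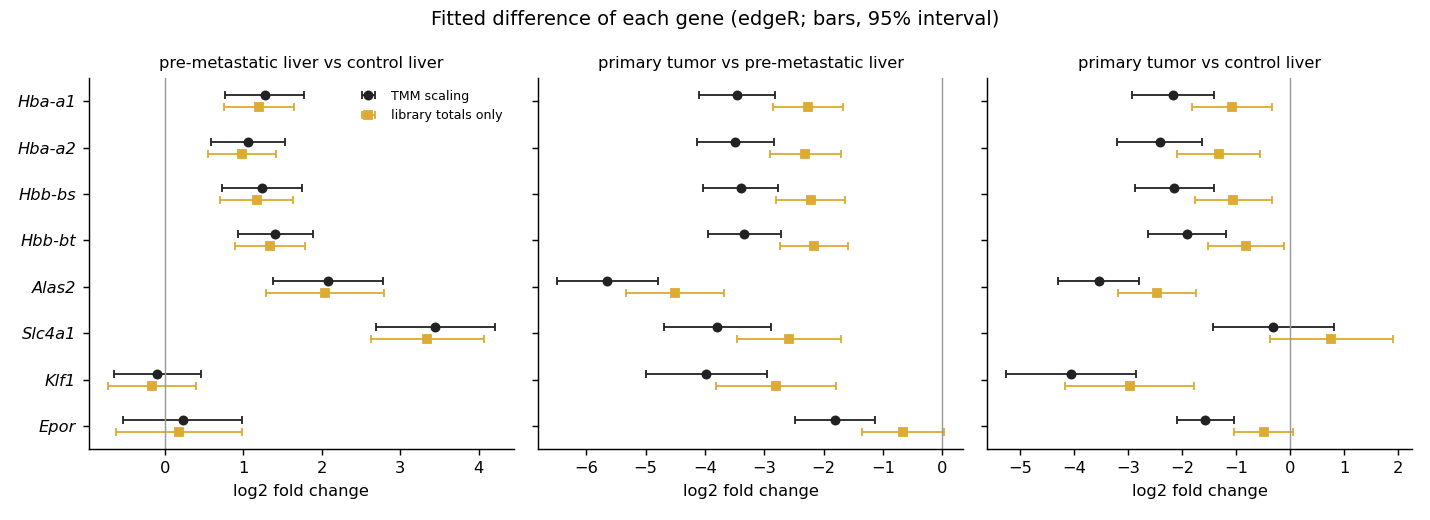
Fitted log2 fold change of the 8 genes in the 3 comparisons (horizontal axes), with TMM scaling (circles) and with library totals only (squares). Bars are 95% intervals. Between the livers the scalings give nearly the same values, and against the tumor they shift all genes alike, so that Slc4a1 against control liver moves from -0.31 to 0.76.

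Relative to globin RNA, the other genes did not keep a fixed level. Per 1000 RPKM of the 4 globins, Slc4a1 had 0.129 ± 0.0565 RPKM in control and 0.518 ± 0.139 in pre-metastatic liver, a ratio of 4.03 with no overlap. Klf1 went the other way, from 2.23 ± 0.720 to 0.903 ± 0.343 per 1000, a ratio of 0.404 with no overlap. The RPKM of Klf1 itself had a ratio of 0.897 with overlap, so its fall per 1000 mostly restates the higher globin sum it is divided by. Alas2 had 43.2 ± 12.8 and 76.9 ± 40.2 per 1000, and Epor 1.46 ± 0.566 and 0.709 ± 0.456 per 1000, both with overlap. These ratios are given as a description, without a test.

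**Figure D3:**
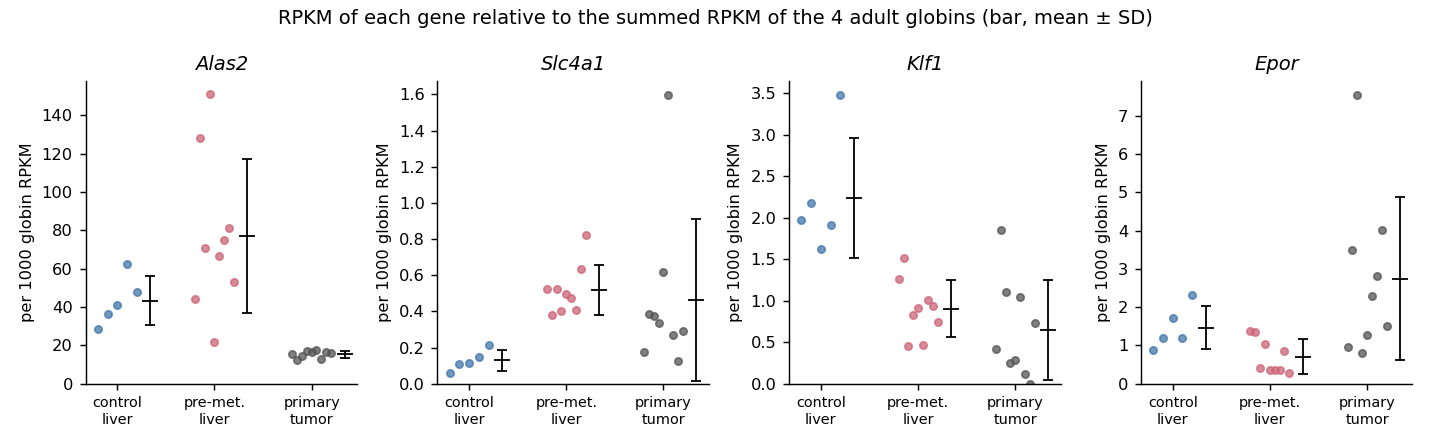
RPKM of Alas2, Slc4a1, Klf1, and Epor per 1000 RPKM of the 4 globins (vertical axes, each from 0) by group. Each point is a library and each bar the mean ± SD. Alas2 in the tumors (12.3 to 17.5 per 1000) lies below every liver (21.7 or more), and Slc4a1 in pre-metastatic livers (0.380 or more) lies above every control liver (0.215 or less).

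Among the 9 pre-metastatic livers, the globins varied together. As a description over these 9 libraries, Spearman's rho between Hba-a1 and Hbb-bs was 0.917 and Pearson's r on log2(RPKM + 1) 0.968. This globin pair was the highest, and Hba-a1 with Hba-a2 had the lowest rho, 0.617, with an r of 0.798. Between Hba-a1 and Slc4a1 rho was 0.70 and r 0.826. Alas2 followed less, with a rho of 0.0667 and an r of 0.207 to Hba-a1, and 0.383 and 0.391 to Hbb-bt. The liver of M4 had the most globin, 1118 RPKM, with 79.2 RPKM of Alas2, but the liver of M5 had the most Alas2, 83.7 RPKM, with 555 RPKM of globin. Klf1 had a rho of 0.0333 to Hba-a1 and of 0.683 to Epor. All points share the scaling to library totals.

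Among the genes most like the globin sum over these 9 livers, among 10919 genes with a mean of at least 1 RPKM, were Wfdc21 (r = 0.872), Gm15772 (0.841), Egr1 (0.818), Rpl34 (0.817), E430018J23Rik (0.789), Nme2 (0.787), and Rps14 (0.783). Rpl34 and Rps14 are ribosomal proteins. Alas2 stood at place 1268. The genes most like Klf1, among 14254 with at least 10 counts in all 9, were Pigz (r = 0.937), ENSMUSG00000109262.1 (0.937), Mplkip (0.933), Prr5 (0.932), Zc3h6 (0.931), Gm8893 (0.927), Adipor1 (0.924), and Prkag2 (0.924). The 6 mature genes had an r to Klf1 between -0.104 (Hba-a1) and 0.134 (Hbb-bt), and Epor stood at place 602. Klf1 is close to other expressed genes. The lncRNA Gm39213 lies 1774 bases from it and had 3.18 RPKM in control and 2.28 in pre-metastatic liver, and Dnase2a, a nuclease of the macrophages that clear red cell nuclei, lies 3329 bases away and had 10.3 and 10.6 RPKM. Over the 9 livers the r of Klf1 was 0.548 to Gm39213 and 0.655 to Dnase2a.

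Other red cell genes moved in part. Of 18 membrane and skeleton genes, 11 could be tested, and 3 rose and 2 fell, with a median difference of 0.33 against 0.01 over all genes. Of all genes tested, 17.7% were called higher and 13.3% lower. Sptb, the red cell beta spectrin, rose by 0.95 (adjusted *p* = 0.025 by edgeR), a call lost without C5, C6, or C7 in turn (adjusted *p* = 0.0603, 0.0656, and 0.0582). Icam4, a red cell adhesion molecule, fell by 2.69 (adjusted *p* = 0.00174 by edgeR), and Epb41, a skeleton protein also made in other cells, fell by 0.60 (adjusted *p* = 0.0019 by edgeR).

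Of 19 late red cell cytoplasm genes in the table, 16 could be tested, and 5 rose and 2 fell, with a median of 0.39. Over all genes tested, 17.7% were called higher and 13.3% lower, so the number that fell is near that share. Trim10, a ubiquitin ligase of the red cell line, rose by 5.57 (SE 0.65, adjusted *p* = 5.15e-05 by edgeR), from 0 or 1 count in each control liver to 9 to 45 counts. So few control counts make the size of this fitted value depend on the fit's prior count. Ube2l6 rose by 0.95 (adjusted *p* = 0.00195 by edgeR) and Bpgm, which makes the red cell's 2,3-bisphosphoglycerate, by 0.49 (adjusted *p* = 0.00526 by edgeR). Blvrb, biliverdin reductase B, fell by 1.15 (adjusted *p* = 0.000248 by edgeR). The number that fell was 1 without C1 or C4 and in the mice with a clock index under 0. Hemgn had 0 counts in every control liver and 1 to 7 in the pre-metastatic livers, too few for the test.

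Heme synthesis genes were called in both directions. Of the 13 genes, all tested, 3 rose, with Alas2 among them, and 3 fell, and the median was -0.02. These counts are near the shares over all genes tested, 17.7% higher and 13.3% lower. Of the 13, only Alas2 differed by more than 1 on the log2 scale. Alas1, the form of the first enzyme used outside the red cell line, had 179 ± 109 RPKM in control and 104 ± 105 RPKM in pre-metastatic liver (-0.67, adjusted *p* = 0.469 by edgeR). The mitochondrial glycine carrier Slc25a38 fell by 0.64 (adjusted *p* = 0.0012 by edgeR), and ferrochelatase, Fech, which inserts the iron, differed by -0.02 (adjusted *p* = 0.867 by edgeR). The number that rose was 1 with library totals only, with no filter on low counts, without C4, and in the mice with a clock index under 0. The number that fell was 1 without C1 or C4.

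In the mice with a clock index under 0, erythroid transcription factors rose in 3 of 12 tested. With all mice 5 of 13 rose, with a median of 0.11, where 17.7% of all genes tested were called higher. These 5 were Nfe2 (3.44, adjusted *p* = 0.00144), Bcl11a (2.53, adjusted *p* = 0.0226), E2f2 (1.41, adjusted *p* = 0.00415), Lyl1 (1.23, adjusted *p* = 0.0031), and Sox6 (0.56, adjusted *p* = 0.0167), all by edgeR. The call on Bcl11a was lost without C1 or C4 (adjusted *p* = 0.0543 and 0.0571) and that on Sox6 without C5 (adjusted *p* = 0.0511). Nfe2 is also made in platelet precursors, and Lyl1 and E2f2 in other blood cells. Gata1, which defines the red cell line, was near 0, with 0 to 4 counts in control livers and 0 to 7 in pre-metastatic livers, and Tal1, its partner, differed by -0.04 (adjusted *p* = 0.937 by edgeR). Gfi1b had 0 counts in control livers and at most 1 count in pre-metastatic livers.

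Of 12 tested genes of the erythropoietin receptor pathway, 8 rose and 1 fell, with a median of 0.54. The shares over all genes tested were 17.7% higher and 13.3% lower. Kit, the stem cell factor receptor, rose by 1.46 (adjusted *p* = 0.00701 by edgeR), Socs3, a brake on cytokine signaling that many cytokines induce, by 1.26 (adjusted *p* = 0.000492 by edgeR), and Stat5a by 0.89 (adjusted *p* = 0.0058 by edgeR). Cish, a direct target of Stat5, differed by 0.34 (adjusted *p* = 0.734 by edgeR). Tfrc, the transferrin receptor that feeds iron to precursors, fell by 0.95 (adjusted *p* = 0.0114 by edgeR), a call lost without C6 (adjusted *p* = 0.0528). Epo itself had 0 to 4 counts in control and 0 in pre-metastatic livers. With library totals only, 4 genes rose in place of 8, and 6 rose without C4, C5, or C7 in turn.

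**Figure D4:**
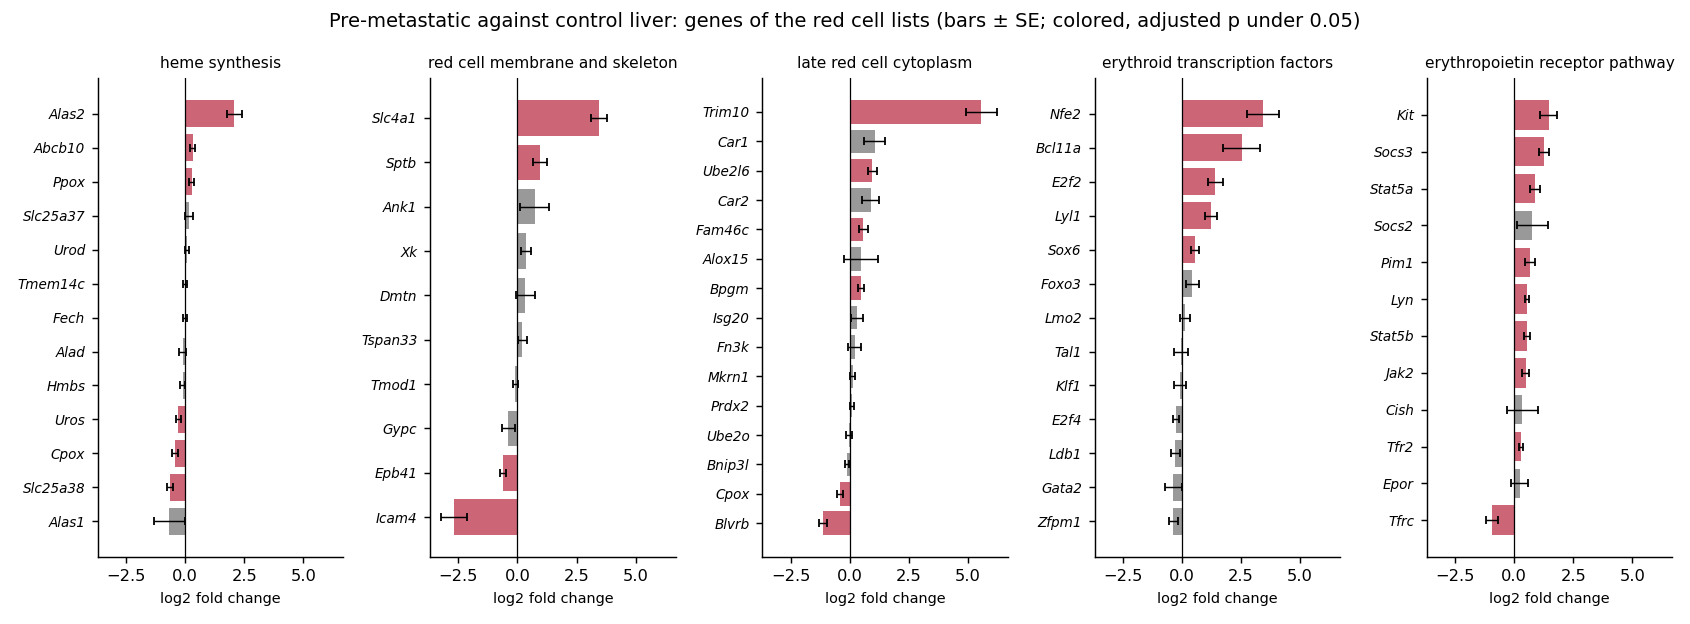
Log2 fold change of pre-metastatic against control liver (horizontal axes) for tested genes of 5 red cell lists, with bars ± SE. Colored bars have an adjusted *p* under 0.05. Trim10 (5.57), Slc4a1 (3.45), and Nfe2 (3.44) lie farthest to the right, and Icam4 (-2.69) farthest to the left.

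Proteins that clear free hemoglobin and heme moved as well. Of 10 genes, 5 rose and 2 fell, with a median of 0.54, where 17.7% of all genes tested were called higher and 13.3% lower. Among those that fell is Blvrb, which also counts in the late red cell cytoplasm list. With 1 library left out, 4 to 6 rose. Hpx, hemopexin, which binds heme, rose by 1.80 (adjusted *p* = 0.000325 by edgeR), and Hp, haptoglobin, which binds hemoglobin, by 1.25 (adjusted *p* = 0.00583 by edgeR). Both are also made in the acute phase. The receptor for hemopexin, Lrp1, rose by 0.70 (adjusted *p* = 0.000614 by edgeR), whereas the hemoglobin receptor Cd163 differed by 0.54 (adjusted *p* = 0.164) and heme oxygenase, Hmox1, by 0.26 (adjusted *p* = 0.271 by edgeR, called only without C7).

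Several lists of markers of other blood and liver cells also rose between the livers, where 17.7% of all genes tested were called higher. Whether these markers varied with the red cell genes from mouse to mouse was not tested. Of 8 cell division genes, 8 rose, and their summed level went from 1.11 to 2.03 RPKM in control to 2.57 to 12.9 RPKM in pre-metastatic livers. Granulocyte precursor genes rose in 5 of 8 (sums of 2.004 to 7.79 and 27.4 to 115 RPKM), led by Prtn3, proteinase 3, with 5.99 (adjusted *p* = 1.43e-06 by edgeR). That count was 2 without C4 or C6, 3 without C1 or C7, and 2 in the mice with a clock index under 0. Neutrophil genes rose in 6 of 7 (6.49 to 18.0 and 7.29 to 119 RPKM), and in 4 without C1, C4, C5, C6, M1, or M6 in turn. Kupffer cell and island macrophage genes rose in 5 of 9 (82.7 to 146 and 142 to 374 RPKM). Platelet and megakaryocyte genes rose in 4 of 10 (2.40 to 4.19 and 4.29 to 8.70 RPKM, without overlap of the sums), and in 2 without C7 or M1 and 0 of 6 tested in the mice with a clock index under 0. Mast cell genes were called in 0 of 2 by edgeR, with unadjusted *p* values not under 0.05. Hepatocyte genes rose in 2 and fell in 1 of 8, and 3 of 7 genes of the carcinoma and epithelium list rose, with Vim at most 6616 counts in a pre-metastatic liver and at least 235917 in a tumor. The part of these cells in the levels of the red cell genes was not tested.

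In the primary tumor all 8 genes were lower than in pre-metastatic liver, but so were many genes: 39.5% of the 19749 genes tested were called lower and 43.8% higher. The share depends on scaling, since the median of all genes was 0.13 on the log2 scale with TMM and 1.30 with library totals only, where 21.3% were called lower and 67.6% higher. In RPKM, which uses library totals, the 4 globins summed to 145 ± 80.2 RPKM (SD, n = 9) in the tumors, from 42.1 (M4) to 322 (M1) with a median of 118 RPKM, and 0.211 of the mean of pre-metastatic liver. In all 9 mice the tumor had less than the liver, by a ratio of 0.0376 to 0.491. Fitted differences of the globins were between -3.49 (Hba-a2) and -3.34 (Hbb-bt) with TMM and between -2.31 and -2.16 with library totals only.

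Alas2 was lower still. It had 0.605 (M4) to 4.91 (M1) RPKM in the tumors with a median of 1.81 RPKM, lower than in the liver in 9 of 9 mice, and a difference of -5.64 (SE 0.40, adjusted *p* = 7.77e-11 by edgeR). Klf1 had 0 counts in the tumor of M10, which allows up to 3 counts there, and at most 21 counts (M2), with a median of 0.0555 RPKM and a difference of -3.98 (SE 0.49, adjusted *p* = 2.48e-07 by edgeR). Slc4a1 had 4 to 41 counts and differed by -3.79 (SE 0.43, adjusted *p* = 9.82e-08 by edgeR). Both were lower in the tumor in 9 of 9 mice. Epor differed least, by -1.81 (SE 0.32, adjusted *p* = 3.54e-05 by edgeR). In RPKM it was lower in 6 of 9 mice, and with library totals only its difference of -0.67 was not called (adjusted *p* = 0.0651).

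Against control liver, 7 of the 8 genes were lower in the tumor, where 38.1% of 19320 genes were called lower and 44.2% higher. With library totals only, 6 were lower, against 21.4% of all genes lower and 66.6% higher. Alas2 (-3.54, adjusted *p* = 1.07e-07 by edgeR) and Klf1 (-4.05, adjusted *p* = 5.42e-06 by edgeR) differed most. The globins differed by -2.41 to -1.91, and their summed RPKM overlapped between the groups, since the tumor of M1 reached 322 RPKM and control livers went down to 205 RPKM. Epor differed by -1.57 (adjusted *p* = 2.6e-05 by edgeR), and by -0.49 with library totals only (adjusted *p* = 0.0862). Slc4a1 was not called, with -0.31 (95% interval -1.42 to 0.80, adjusted *p* = 0.591 by edgeR), and its sign turned with library totals only (0.76, adjusted *p* = 0.19). These comparisons use the same tumors, and the first comparison uses the same control livers.

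In the tumors the Alas2 to globin ratio was nearly fixed. Per 1000 globin RPKM it was 15.4 ± 1.88, from 12.3 (M2) to 17.5 (M7), while globin itself varied from 42.1 to 322 RPKM. The livers held more and varied more, from 28.6 to 62.4 per 1000 in control and from 21.7 (M6) to 151 (M5) in pre-metastatic livers, so the tumors overlapped with neither group. In each of the 9 mice the ratio was lower in the tumor than in the liver. As a description over the 9 tumors, the r of Alas2 to Hba-a1 was 0.973 and rho 0.917, against 0.207 and 0.0667 in the 9 livers. A ratio within a library does not change with scaling. Klf1 per 1000 globin RPKM ran from 0 to 1.85 in the tumors and Epor from 0.800 to 7.55. The r of Hba-a1 was 0.361 to Klf1 and -0.166 to Epor there.

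**Figure D5:**
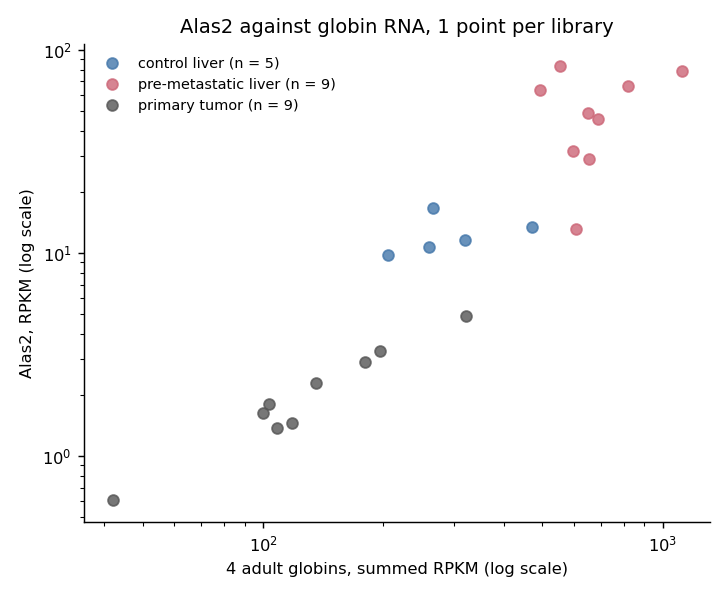
Alas2 RPKM (vertical, log scale) against the summed RPKM of the 4 adult globins (horizontal, log scale), 1 point per library. The 9 tumors lie along a line from 42.1 and 0.605 RPKM (M4) to 322 and 4.91 RPKM (M1), and the livers lie above that line and scatter more.

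Other globins differed in kind between tissues. These rows were singled out after their values had been seen. The embryonic beta-like globin Hbb-bh1 had 39, 3, 33, 11, 20, 27, 27, 10, and 19 counts in the tumors of mice M1, M2, M4, M5, M6, M7, M8, M10, and M12, 0 counts in all 5 control livers, and 3 counts in 1 of 9 pre-metastatic livers (M6). Hbb-y, the other embryonic beta-like globin, had 0 (M2) to 48 (M7) counts in the tumors, above 0 in 8 of 9, and 0 counts in all 14 livers, where each library allows up to 3 counts. Hba-x, the embryonic alpha-like globin, and Hbb-bh2 had 0 counts in all 23 libraries. Whether reads of other beta globins enter these rows was not tested. Hbq1b had at most 1 count in a control liver, 7 in a pre-metastatic liver, and 4 in a tumor. For Hbq1a the highest counts were 1 in a control liver, 7 in a pre-metastatic liver, and 1 in a tumor. Both were too low for the test. Of the genes Cygb and Ngb, the only other globins tested between the livers, neither was called (0.52 and -0.16, adjusted *p* = 0.128 and 0.862 by edgeR), though Cygb was without M7 (0.62, adjusted *p* = 0.0232).

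The levels in liver and tumor of the same mouse were also compared. Over the 9 mice, Pearson's r of log2(RPKM + 1) between liver and tumor was -0.672 for Hba-a1 (exact permutation *p* = 0.0548) and -0.700 for Alas2 (exact permutation *p* = 0.0358), and Spearman's rho was -0.683 (exact permutation *p* = 0.0503) and -0.667 (exact permutation *p* = 0.0589), all two-sided. All of the 8 genes except Klf1, which had too few counts in the tumors, were part of 14497 relations. Of these relations, 5.19% had an exact *p* of rho under 0.05 and 0 an adjusted *p* under 0.05 (0.849 for Hba-a1 and 0.856 for Alas2). Without the 2 mice farthest from the median in the liver, r was -0.000861 for Hba-a1 (M4 and M10 left out) and -0.915 for Alas2 (M5 and M6 left out). Spearman's rho was then -0.321 for Hba-a1 and -0.857 for Alas2. The size of the relation of Hba-a1 thus depends on M4 and M10. For the other 6 genes r lay between -0.678 (Hbb-bs) and 0.307 (Epor), with no exact *p* under 0.05.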

How the data were processed

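The authors deposited, for each gene and library, the raw count and the RPKM, the count divided by gene length and library total. The submitters' notes name the build mm10 with HISAT2, HISAT, and HTSeq 0.6.0, and the kit is not stated to mark strand. RPKM recomputed from the counts differed by at most 1.75e-06 of a value.

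Deposited counts were tested with edgeR 4.0.16 in R 4.3.3 (TMM, quasi-likelihood, two-sided), each comparison on its own libraries, keeping genes that reached 10 counts in 5 or more of them, with Benjamini-Hochberg adjustment. Alternatives were DESeq2 1.42.0, other scalings, no filter, left-out libraries, a clock subset, and the mouse as a block. Library totals only, TATAA, and the rows of embryonic globins, Hbq1a, and Hbq1b were added after the data had been seen. The script was tested on simulated counts. The 8 genes and all lists were chosen with earlier results of these data known.

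Tumor and liver with the same mouse number come from the same animal. The mean correlation of their deviations from the group means was 0.0810 within a mouse (-0.0427 to 0.241) and -0.0103 between mice. No library was a copy of another (closest pair, chi-square of 49.3 per degree of freedom). Named genes are the 8 genes, the called genes of each list by size of difference, and the 8 genes most like the globins or Klf1. A few other list members are named for their role.

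Counting error covers the sampling of reads only. A count of 0 allows up to 3 counts. In the list of red cell genes the table uses older symbols for 3 genes, and Ahsp is not analysed here. A few members of the lists are counted but not reported by name here.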

Additional observations from a re-analysis of the deposited data

Results flagged for a closer look

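Within groups, 48 sets of values were searched for a lone high or low sample, and 5 had one, where chance flags about 1 in 20. In the pre-metastatic livers Hbb-bs stood apart in mouse M4, with 552 RPKM against 361 RPKM in the next liver. Without M4 the ratio of the pre-metastatic to the control mean of Hbb-bs was 2.05. In the primary tumors Hbb-bt stood apart in M1, with 23.3 RPKM against 13.3 RPKM in the next. The Hba-a2 share of alpha globin was 28.2% in the tumor of M12 against 24.0% in the next. Slc4a1 per 1000 globin RPKM was 1.59 in the tumor of M7, from 41 counts, against 0.620 in the next. Epor per 1000 globin RPKM was 7.55 in the tumor of M4, which held the least globin, against 4.03 in the next. No cause was tested for any of these values.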

How the results depend on the processing

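The counts of 6 genes higher in pre-metastatic liver and 8 lower in the tumor than in that liver came out alike under other scalings, DESeq2, no filter, the clock subset, and each left-out library, except that with library totals only Epor was not called in the tumor. With the mouse as a replicate block the tumor differences ran from -5.72 (Alas2) to -1.70 (Epor), and no call on the 8 genes changed. Leaving out 1 library gave 2514 to 2964 genes higher and 1757 to 2317 lower between the livers, 8411 to 8599 and 7675 to 7751 between tumor and pre-metastatic liver, and 8257 to 8479 and 6583 to 7330 between tumor and control liver. It gave 2.08 to 2.61, 0.179 to 0.230, and 0.404 to 0.551 for the ratios of globin RPKM of pre-metastatic to control liver, tumor to pre-metastatic liver, and tumor to control liver. With library totals only, the tumor had 13352 genes higher and 4207 lower against pre-metastatic liver, and 12859 and 4131 against control liver. With TMM factors in place of totals, the tumor to pre-metastatic ratio of globin was 0.0939, and the tumor to control ratio of Slc4a1 0.806 in place of 1.72. Signs also turned for Slc4a1 in tumor against control liver with library totals only (0.76), for Epor between the livers in the clock subset (-0.16), and for Klf1 between the livers without C1. Over left-out libraries the Klf1 difference ran from -0.22 to 0.11 and its ratio of levels from 0.824 to 1.002. The liver to tumor r turned to 0.507 for Hbb-bt and 0.182 for Slc4a1 without 2 mice, and to -0.0390 for Klf1 with a pseudocount of 0.1. The cause of these turns was not tested. In the clock subset of tumor against control liver Slc4a1 and Klf1 had too few counts in its libraries for the test. Low counts limit Slc4a1, Klf1, and Epor.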
